A study of Mus musculus with 14 samples.

Results

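The transcripts of 10 genes of fibroblast growth factor (FGF) signalling and of the feedback on its kinase ERK were followed in E14 mouse embryonic stem (ES) cells during mTOR inhibition. They were chosen by name from 54446 annotated genes. They are the ligand gene Fgf4, the receptor genes Fgfr1 and Fgfr2, the feedback inhibitor genes Dusp6, Spry2, Spry4 and Spred1, and the target transcription factor genes Etv4, Etv5 and Egr1. Each name matched 1 gene, and all 10 passed the filter on low values that left 18232 genes for testing. Total RNA was sequenced from 14 libraries in 7 groups of 2 replicates. Wild type E14 cells were taken at 0, 24, 72 and 144 h of the mTOR inhibitor Ink128 (mTORi). E14 TET1/2 DKO cells (DKO), which the study describes as carrying Cas9 deletions in the genes of the DNA demethylases TET1 and TET2, were taken at 0, 24 and 72 h. The 0 h cells received no inhibitor. Per the study's methods, all cells were grown with serum and LIF and without feeder cells, and the edited line came from single sorted cells, so that it stands for 1 edited line rather than for independent knockouts.

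FGF4 is the main FGF that ES cells secrete. It binds FGF receptors at the cell surface, which through adaptors and RAS switch on the kinase chain RAF, MEK and ERK. ERK then induces genes of the ETS family (Etv4, Etv5), immediate early genes such as Egr1, and genes of its own inhibitors: DUSP6 is a phosphatase that removes the activating phosphates from ERK, and the Sprouty (Spry) and Spred proteins block the route from receptor to RAF. The transcripts of these inhibitors and targets are commonly read as a gauge of ERK output. In ES cells and the early embryo this pathway favours the exit from naive pluripotency and the formation of primitive endoderm, and mTOR inhibition brings ES cells into a slow, paused state that resembles embryonic diapause.

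Values are given on 2 scales, because they answer different questions. The deposited TPM is a share of each library, whereas the spike-in normalized TPM is that value times a factor of the library, between 1 and 2.81, that refers it to the ERCC spike-in RNA added by the study. RNA was extracted from a set number of sorted cells and libraries were made from a set mass of RNA. At which of these steps the spike-in was added is not given in the sources used here. The values are not counts, so the depth behind each is unknown. On the spike-in scale the median of all 18232 genes moved by -0.33, -0.33 and -0.83 log2 units at 24, 72 and 144 h in wild type cells and by -0.49 and -0.12 at 24 and 72 h in DKO cells. On the deposited scale these medians lay between -0.01 and 0.14. A gene that stays level on the spike-in scale while most genes fall therefore gains in share. A gene is named as called, higher or lower, where limma's moderated test across all genes gave a Benjamini-Hochberg adjusted p under 0.05. Groups hold 2 libraries each. A p-value rests on the spread between replicate libraries, estimated per gene over all 7 groups and moderated across genes. A call can therefore depend on libraries outside the 2 groups compared. The factors of the DKO replicates differed by more than those of the wild type replicates (2.24 and 1.36 after 24 h, and 2.53 and 1.73 after 72 h), a spread that the deposited TPM does not carry. Lack of overlap between 2 groups of 2 libraries was common. In wild type cells 47.8%, 55.3% and 82.1% of genes lay wholly below 0 h on the spike-in scale at 24, 72 and 144 h. In DKO cells 46.3% and 30.1% did so at 24 and 72 h. On the deposited scale 32.4%, 33.8% and 37.3% lay wholly above 0 h in wild type cells, and 28.2% and 44.2% in DKO cells.

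As a check of the labels, Tet2 held 96.0 to 143 deposited TPM in the 8 wild type libraries and 15.9 to 22.2 in the 6 DKO libraries, and the groups did not overlap. Tet1 held 191 to 349 deposited TPM in wild type and 147 to 248 in DKO libraries. Its DKO libraries were below the wild type libraries at each matched time in deposited TPM (147 and 152 against 191 and 197 at 0 h), whereas in spike-in normalized TPM the groups overlapped at each of these times. Both are values of the whole gene. The guides cut in 2 exons of each gene, so that exons outside the deleted part may still give transcript, and the Tet1 value does not decide whether the deletion is there. Per its methods, the study screened the clones by PCR and checked TET1 and TET2 protein by western blot. All 8 ES cell markers, among them Pou5f1 and Nanog, were above 1 TPM in every library, with sums of 4126 to 6326. The fibroblast or feeder list summed to 1.31 to 17.8 TPM, Thy1 giving most of it, and Col1a1, Col3a1 and Dcn stayed below 1 TPM in all 14 libraries. The primitive endoderm list (Gata4, Gata6, Sox17, Pdgfra, Foxa2, Sox7) ran from 5.36 to 116 TPM and was highest in wild type cells after 24 h, and its values are set beside Fgfr2 below. Fewer cells of a type and less RNA per cell cannot be told apart in such bulk samples.

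The stretches before the transcription start of 4 members are shown because they make up the 2 pairs of members whose values were most alike over the 14 libraries, Fgf4 with Etv5 and Dusp6 with Spry2. They are the 250 bases before the RefSeq start (GRCm38.p6, the build of the deposited coordinates), 5′ to 3′ on the gene's own strand, with CCAAT boxes (CCAAT, either strand) and GC boxes (GGGCGG, either strand) in capitals. Fgf4 lies on the plus strand (chr7:144861136-144861385), Etv5 on the minus strand (chr16:22439571-22439820), Dusp6 on the plus strand (chr10:99262981-99263230) and Spry2 on the minus strand (chr14:105896820-105897069).
Fgf4: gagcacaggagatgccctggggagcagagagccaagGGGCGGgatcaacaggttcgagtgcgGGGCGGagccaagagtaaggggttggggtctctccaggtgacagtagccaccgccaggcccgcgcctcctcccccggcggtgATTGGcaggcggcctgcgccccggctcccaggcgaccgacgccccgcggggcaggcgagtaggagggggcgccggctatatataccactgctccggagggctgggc
Etv5: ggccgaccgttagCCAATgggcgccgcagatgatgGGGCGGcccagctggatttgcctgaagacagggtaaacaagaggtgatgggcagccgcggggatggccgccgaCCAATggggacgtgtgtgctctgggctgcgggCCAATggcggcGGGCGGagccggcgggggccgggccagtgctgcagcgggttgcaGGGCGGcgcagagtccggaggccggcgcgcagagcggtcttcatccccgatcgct
Dusp6: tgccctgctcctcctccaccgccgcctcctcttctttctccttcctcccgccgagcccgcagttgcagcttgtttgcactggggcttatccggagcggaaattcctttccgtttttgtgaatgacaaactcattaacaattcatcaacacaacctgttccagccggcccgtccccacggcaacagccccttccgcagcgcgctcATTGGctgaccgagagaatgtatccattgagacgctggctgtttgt
Spry2: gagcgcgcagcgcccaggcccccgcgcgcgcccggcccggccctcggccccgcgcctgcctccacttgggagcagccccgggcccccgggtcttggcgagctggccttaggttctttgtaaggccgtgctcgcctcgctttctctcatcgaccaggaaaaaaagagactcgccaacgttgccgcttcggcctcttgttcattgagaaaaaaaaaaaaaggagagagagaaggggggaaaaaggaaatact

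RefSeq entries were at hand for 6 of the 10 members, and Etv5 had 2 entries. None of the 7 stretches held an ETS site (CCGGAA), an AP-1 site (TGANTCA), an E-box (CACGTG) or a CArG box on either strand. Over all 32851 entries of this length the ETS site was found in 12%, the AP-1 site in 6.75%, the E-box in 6.02% and the CArG box in 1.47%. The Etv5 stretch shown held 3 CCAAT and 3 GC boxes, that of Fgf4 held 1 CCAAT and 2 GC boxes and that of Dusp6 held 1 CCAAT box, while that of Spry2 held neither. The other Etv5 entry, which is not shown, held 1 CCAAT box and 0 GC boxes. A CCAAT box stood in 33.8% and a GC box in 32.7% of all entries, no match overlapped another, and this second pair of motifs was added after the sequences had been seen. These are matches of letters and not bound sites. The start used for Dusp6 and Spry2 is also that of the deposited gene model, whereas the deposited models of Etv5 and Fgf4 begin 149 and 14019 bases further upstream.

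In proliferating wild type cells the members spanned a wide range of spike-in normalized TPM, a scale on which genes are compared per length. Etv5 stood highest at 436 ± 36.0 (SD, n = 2), followed by Spry2 (202 ± 3.72), Fgf4 (195 ± 32.9) and Etv4 (179.7 ± 36.6), which did not differ beyond their spread. Spry4 came next, within the spread of Etv4, at 144 ± 8.67, then Fgfr1 (85.9 ± 3.25), Dusp6 (75.98 ± 0.644) and Spred1 (65.1 ± 1.54). Egr1 (41.9 ± 22.3) and Fgfr2 (29.2 ± 21.7) were lowest and, relative to their means, differed most between their 2 libraries. Etv5 ranked above 96.5% of the genes tested and Fgfr2 above 59.6%. The plot of all members by library shows how the levels moved from there.

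**Figure D1:**
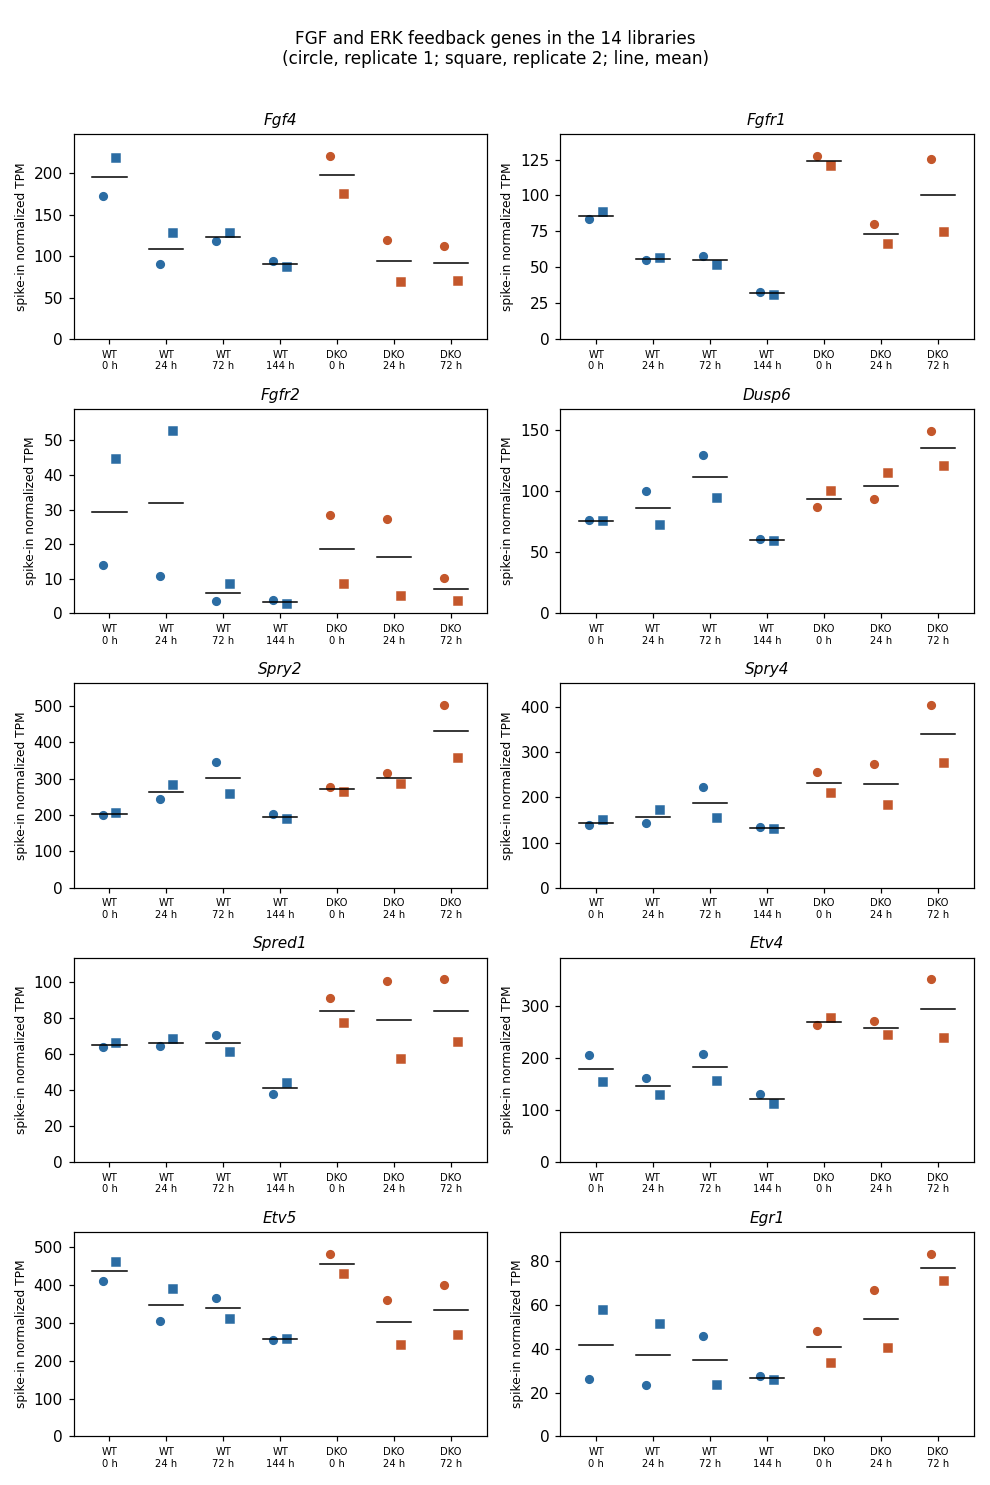
Spike-in normalized TPM (linear axis from 0) of each of the 10 genes in the 14 libraries, by group of genotype (WT blue, DKO orange) and hours of mTORi on the x axis. Circles are replicate 1, squares replicate 2 and lines the mean of 2. Fgf4 lies below its 0 h libraries in every treated group, whereas the highest Spry2, Spry4 and Egr1 levels are those of DKO cells after 72 h.

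The ligand gene Fgf4 (ENSMUSG00000050917.5, chr7:144847367-144865243, plus strand, mm10) fell in both genotypes. Its spike-in normalized TPM was 172 and 219 in wild type replicates 1 and 2 at 0 h, 90.0 and 128 after 24 h, 118 and 127 after 72 h and 94.1 and 87.1 after 144 h. In DKO cells it was 220.1 and 174 at 0 h, 119 and 68.5 after 24 h and 112 and 70.4 after 72 h. No treated library reached a 0 h library of its genotype, and the means at the last time were 0.464 and 0.464 of those at 0 h. In the single comparisons 30.1% to 82.1% of all genes also lay wholly below 0 h. The fall was called after 144 h in wild type cells (log2 fold change -1.09 ± 0.31 (SE), adjusted p = 0.0078) and in DKO cells after 24 h (-1.11 ± 0.31 (SE), adjusted p = 0.017) and 72 h (-1.13 ± 0.31 (SE), adjusted p = 0.045). The first of these was lost without replicate 2 at 0 h or replicate 2 after 144 h (adjusted p = 0.086 and 0.063), and the DKO call after 24 h without replicate 1 at 0 h or replicate 2 after 24 h (adjusted p = 0.17 and 0.18). As a share of the library, the deposited TPM of DKO cells fell from 78.2 and 73.4 to 53.1 and 50.5 and then 44.4 and 40.8. That of wild type cells fell from 81.5 and 104 to 62.8 and 68.9 after 24 h. It was 71.3 and 85.5 after 72 h, overlapping the 0 h pair, and 87.9 and 87.1 after 144 h, between the 2 libraries at 0 h. On that scale the change was called after 24 h in wild type cells (-0.48 ± 0.12 (SE), adjusted p = 0.014) and after 24 h (-0.54 ± 0.12 (SE), adjusted p = 0.0096) and 72 h (-0.82 ± 0.12 (SE), adjusted p = 0.0016) in DKO cells, and not after 144 h (-0.07 ± 0.12 (SE), adjusted p = 0.71). On the deposited scale the wild type call was lost without replicate 2 at 0 h or replicate 1 after 24 h (adjusted p = 0.11 and 0.09). Its log2 fold change ran from -0.65 to -0.30 over these fits. The DKO call after 24 h was lost without replicate 1 at 0 h (adjusted p = 0.056). The call after 72 h in DKO cells held without any 1 library on that scale (highest adjusted p = 0.018, limma), but on the spike-in scale it was lost without any 1 of 9 libraries.

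Fgfr1 (ENSMUSG00000031565.18, chr8:25513654-25575718, plus strand) encodes the main FGF receptor of ES cells. Wild type libraries held 83.6 and 88.2 spike-in normalized TPM at 0 h, 55.0 and 56.4 after 24 h, 58.0 and 51.4 after 72 h and 33.1 and 30.7 after 144 h, so that the groups at 24 and 72 h overlapped and both lay between 0 and 144 h. DKO libraries held 127 and 121 at 0 h, 79.9 and 66.5 after 24 h and 126 and 74.7 after 72 h, the last pair overlapping both earlier groups. The wild type change after 144 h was called, at -1.40 ± 0.28 (SE), adjusted p = 0.00086, and stayed so without any 1 library (log2 fold changes -1.45 to -1.35). The median of all genes moved by -0.83 in the same comparison, and on the deposited scale Fgfr1 went from 39.6 and 41.8 to 30.9 and 30.7 TPM, which was not called (-0.39 ± 0.15 (SE), adjusted p = 0.078). With median-centred values the same comparison was called lower by limma (-0.57, adjusted p = 0.026). An exon of Fgfr1 shares bases with the opposite-strand gene Gm16159, and whether the TPM used strand is not given in the sources used here.

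Fgfr2 (ENSMUSG00000030849.18, chr7, minus strand), the receptor associated with primitive endoderm, was the least even member. Its deposited TPM was 6.57 and 21.1 in replicates 1 and 2 of wild type cells at 0 h, 7.54 and 28.5 after 24 h, 2.21 and 5.5998 after 72 h and 3.74 and 2.81 after 144 h. The DKO libraries gave 10.1 and 3.61, 12.3 and 3.62 and 4.09 and 2.05 at 0, 24 and 72 h. Replicate 2 was the higher one in wild type cells at 0, 24 and 72 h, and replicate 1 in every DKO group. Both libraries after 144 h were below those at 0 h, and on the spike-in scale this was called (-2.57 ± 0.73 (SE), adjusted p = 0.0081). The call was lost without replicate 2 of wild type cells at 0 h (log2 fold change -1.77) and was absent on the deposited scale (-1.60 ± 0.74 (SE), adjusted p = 0.13). With the replicate number as a block in limma's fit, the change was called on the deposited scale too (adjusted p = 0.018). The summed primitive endoderm markers, in the same libraries and order, were 8.47 and 21.7, 66.1 and 116, 6.02 and 21.3 and 5.36 and 5.9999 TPM in wild type cells and 24.4 and 8.59, 48.5 and 17.6 and 22.1 and 11.98 in DKO cells. Within 6 of the 7 groups the library with more Fgfr2 also had the higher marker sum, the exception being wild type cells after 144 h. The trophectoderm list summed to 14.3 to 58.9 TPM, Tfap2c being at 5.11 to 52.7 TPM, and its sum was higher in the library with more Fgfr2 in 7 of 7 groups. Of its 6 genes Cdx2 was at 1 TPM or more in 2 of the 14 libraries and Elf5 in 0. The mesendoderm list, which summed to 1.27 to 2.75 TPM, had the same order in 7 of 7 groups. The ES cell list also had it in 6 of 7 groups, all but wild type cells after 24 h, while the formative or primed and the neuroectoderm lists had it in 3 each and the fibroblast or feeder list in 1. The part of such cells in the Fgfr2 values was not tested.

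**Figure D2:**
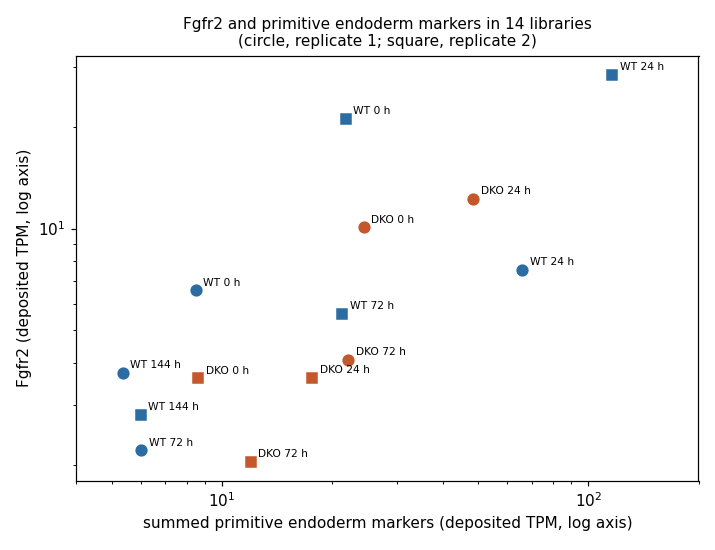
Deposited TPM of Fgfr2 (y) against the summed deposited TPM of 6 primitive endoderm markers (x) in the 14 libraries, both on log axes, with WT in blue, DKO in orange, circles for replicate 1 and squares for replicate 2. Both values are highest in replicate 2 of wild type cells after 24 h and low in wild type cells after 144 h.

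The Fgfr2 value is uncertain for another reason. The deposited gene model reaches from 130162451 to 133123350 on chromosome 7 because 1 of its 27 transcripts in GENCODE M21 starts inside Ctbp2, and 2 of that transcript's 7 exons share bases with Ctbp2 on the same strand. The gene is on the minus strand, and no other transcript of it starts upstream of position 130266263. Ctbp2 held 259 to 389 deposited TPM in wild type and 261 to 370 in DKO libraries, far above Fgfr2, and the part of reads from Ctbp2 in the Fgfr2 value was not tested.

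Of the feedback inhibitors, Spry2 and Spry4 gained share in every treated group while their changes in spike-in normalized TPM did not pass the test. Spry2 (ENSMUSG00000022114.5, chr14:105891947-105896819, minus strand) had 94.7 and 97.2 deposited TPM at 0 h in wild type cells, 169 and 152 after 24 h, 209 and 173 after 72 h and 190.3 and 188 after 144 h. In DKO cells it had 98.4 and 111 at 0 h, 141 and 210.4 after 24 h and 198 and 207 after 72 h. Every treated library was above every untreated library of its genotype, as were those of 28.2% to 44.2% of all genes in the single comparisons. The share came to 1.97 times the 0 h mean after 144 h in wild type cells and 1.93 times after 72 h in DKO cells. The gain was called at 24, 72 and 144 h in wild type cells (log2 fold changes 0.74 ± 0.16, 0.98 ± 0.16 and 0.97 ± 0.16 (SE), adjusted p = 0.0065, 0.0022 and 0.0021). In DKO cells it was called at 24 and 72 h (0.72 ± 0.16 and 0.95 ± 0.16, adjusted p = 0.0091 and 0.0029). In wild type cells no single library was needed for these calls, and in DKO cells only the one after 24 h was lost, without replicate 1 at 0 h (adjusted p = 0.059).

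In spike-in normalized TPM Spry2 held 199.9 and 205 TPM at 0 h, 243 and 282 after 24 h, 345 and 258 after 72 h and 204 and 188 after 144 h in wild type cells. In DKO cells it held 277 and 264, 316 and 286 and 502 and 357 at 0, 24 and 72 h. The wild type libraries at 24 and 72 h thus lay above those at 0 h and those after 144 h overlapped them. No Spry2 change was called on this scale (-0.05 ± 0.26 (SE), adjusted p = 0.88 after 144 h, and 0.64 ± 0.26 (SE), adjusted p = 0.16 after 72 h in DKO cells, where the replicate block gave adjusted p = 0.04).

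Spry4 (ENSMUSG00000024427.6, chr18:38586268-38601268, minus strand), which encodes another Sprouty inhibitor, likewise held more share in each treated library than in those at 0 h. Its deposited TPM was 65.3 and 71.1 at 0 h, 99.5 and 92.9 after 24 h, 135 and 103 after 72 h and 126 and 129 after 144 h in wild type cells. The DKO values were 91.1 and 87.8, 123 and 136 and 159.5 and 159.8 at 0, 24 and 72 h. No treated library overlapped the 0 h libraries of its genotype, where 28.2% to 44.2% of all genes lay wholly above 0 h in the single comparisons. All 5 gains in share were called, with log2 fold changes of 0.49, 0.78 and 0.90 in wild type cells and 0.52 and 0.83 in DKO cells (each SE 0.12, adjusted p = 0.0098, 0.0014, 0.00063, 0.0087 and 0.0012). The calls after 72 h in both genotypes and after 144 h held without any 1 library, and those after 24 h were lost without 1 or another 0 or 24 h library. Its spike-in level was 144 ± 8.67 (SD, n = 2) at 0 h and 132 ± 3.88 after 144 h in wild type cells and 232 ± 33.7 and 340.1 ± 90.5 at 0 and 72 h in DKO cells, with no call (log2 fold changes -0.12 ± 0.28 (SE), adjusted p = 0.73 and 0.53 ± 0.28 (SE), adjusted p = 0.32).

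Dusp6 (ENSMUSG00000019960.8, chr10:99263231-99267489, plus strand) had a wider spread. Wild type libraries held 36.2 and 35.8 deposited TPM at 0 h, 69.8 and 39.1 after 24 h, 78.5 and 63.1 after 72 h and 57.0 and 59.6 after 144 h, all treated libraries being above both at 0 h. DKO libraries held 30.8 and 42.1 at 0 h, 41.8 and 84.4 after 24 h and 59.0 and 70.0 after 72 h, where only the 24 h pair overlapped the 0 h pair. None of these changes passed the test (log2 fold change 0.68 ± 0.32 (SE), adjusted p = 0.14 after 144 h, and 0.82 ± 0.32 (SE), adjusted p = 0.082 after 72 h in DKO cells). In the fit with the replicate number as a block, which compares libraries processed in parallel, they did after 72 h and 144 h in wild type cells (adjusted p = 0.011 and 0.039) and after 24 h and 72 h in DKO cells (0.036 and 0.02). In spike-in normalized TPM the means were 75.98, 86.2, 112 and 60.3 at 0, 24, 72 and 144 h in wild type cells, so that the gene was highest after 72 h, and the change after 144 h was -0.33 ± 0.27 (SE), adjusted p = 0.31.

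Spred1 (ENSMUSG00000027351.14, chr2:117121374-117182279, plus strand), a Sprouty-related inhibitor, had smaller fold changes. Its deposited TPM was 30.3 and 31.3 at 0 h, 45.0 and 36.8 after 24 h, 42.6 and 41.2 after 72 h and 35.5 and 43.9 after 144 h in wild type cells. DKO libraries held 32.3 and 32.5, 44.9 and 42.3 and 40.0 and 38.5 at 0, 24 and 72 h. The gain was called after 24 h (0.39 ± 0.12 (SE), adjusted p = 0.028), 72 h (0.43 ± 0.12 (SE), adjusted p = 0.022) and 144 h (0.35 ± 0.12 (SE), adjusted p = 0.048) in wild type cells and after 24 h in DKO cells (0.42 ± 0.12 (SE), adjusted p = 0.024), and each of these calls was lost without 1 or another library. The block took the one after 144 h to an adjusted p of 0.051. With median-centred values all 4 were lost (adjusted p = 0.082, 0.081, 0.28 and 0.067 in the same order). In spike-in normalized TPM it stood at 65.1 ± 1.54 (SD, n = 2) at 0 h and 40.9 ± 4.23 after 144 h in wild type cells, a drop that was called only with the replicate block (log2 fold change -0.66 ± 0.30 (SE), adjusted p = 0.069 without it and adjusted p = 0.0095 with it).

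Of the ETS factor genes, Etv5 (ENSMUSG00000013089.15, chr16:22381309-22439719, minus strand) had spike-in normalized TPM of 410.5 and 461 at 0 h, 305 and 389 after 24 h, 366 and 311 after 72 h and 256 and 257 after 144 h in wild type cells. The DKO levels were 482 and 429, 361 and 242 and 400.0 and 267 at 0, 24 and 72 h. Every treated library was below the 0 h libraries of its genotype, as were those of 30.1% to 82.1% of all genes in the single comparisons. The change after 144 h was called (-0.76 ± 0.27 (SE), adjusted p = 0.028), a call that was lost without any 1 of the 4 libraries compared. The share went the other way at that time, from 194 and 219 to 239 and 257 deposited TPM (0.27 ± 0.09 (SE), adjusted p = 0.044), a call that held in only 3 of the 14 fits without 1 library. In DKO cells the share was 171 and 181 at 0 h and 158 and 155 after 72 h, and its change was not called (-0.17 ± 0.09 (SE), adjusted p = 0.17). With median-centred values this comparison was called lower by limma (-0.38, adjusted p = 0.014).

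Etv4 (ENSMUSG00000017724.14, chr11:101769742-101785371, minus strand) stood below Etv5 in spike-in normalized TPM in 13 of the 14 libraries. Its level on that scale was 206 and 154 at 0 h, 162 and 129 after 24 h, 209 and 156 after 72 h and 130.4 and 112 after 144 h in wild type cells. DKO libraries held 264 and 278, 271 and 244 and 352 and 239 at 0, 24 and 72 h. No Etv4 change with time was called on either scale (spike-in -0.55 ± 0.27 (SE), adjusted p = 0.096 after 144 h and 0.10 ± 0.27 (SE), adjusted p = 0.88 after 72 h in DKO cells, and deposited 0.47 ± 0.24 (SE), adjusted p = 0.18 and 0.40 ± 0.24 (SE), adjusted p = 0.24). With the replicate block its change after 144 h was called lower on the spike-in scale (adjusted p = 0.024) and higher in share (adjusted p = 0.039), as was its share after 24 h in DKO cells (adjusted p = 0.035).

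Egr1 (ENSMUSG00000038418.7, chr18:34859823-34864984, plus strand), an immediate early gene, differed by more between replicates than between group means in wild type cells up to 72 h. There its deposited TPM was 12.4 and 27.3 at 0 h, 16.4 and 27.7 after 24 h, 27.7 and 15.9 after 72 h and 25.7 and 25.7 after 144 h, all groups overlapping the 0 h pair. DKO libraries held 17.1 and 14.1 at 0 h, 30.0 and 29.9 after 24 h and 33.0 and 41.1 after 72 h, with no overlap with 0 h. The DKO change after 72 h was called on the deposited scale (1.19 ± 0.35 (SE), adjusted p = 0.031), not on the spike-in scale (0.92 ± 0.41 (SE), adjusted p = 0.22), and the first call was lost without any 1 of the 4 DKO libraries compared. Of the other 14 immediate early and dissociation genes, 13 were tested, and in the same comparison 1 was called higher, where 17.2% of all genes were (Zfp36, an RNA-binding regulator of transcript decay, 1.27 ± 0.25, adjusted p = 0.0056) and 1 lower, where 9.06% were (Hspa1b, a heat shock chaperone, -0.58 ± 0.15, adjusted p = 0.019). Fos went from 1.57 to 1.74 TPM at 0 h to 2.56 to 3.27 after 72 h in these libraries (adjusted p = 0.12), and Fosb, which was not tested, stayed below 1 TPM.

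**Figure D3:**
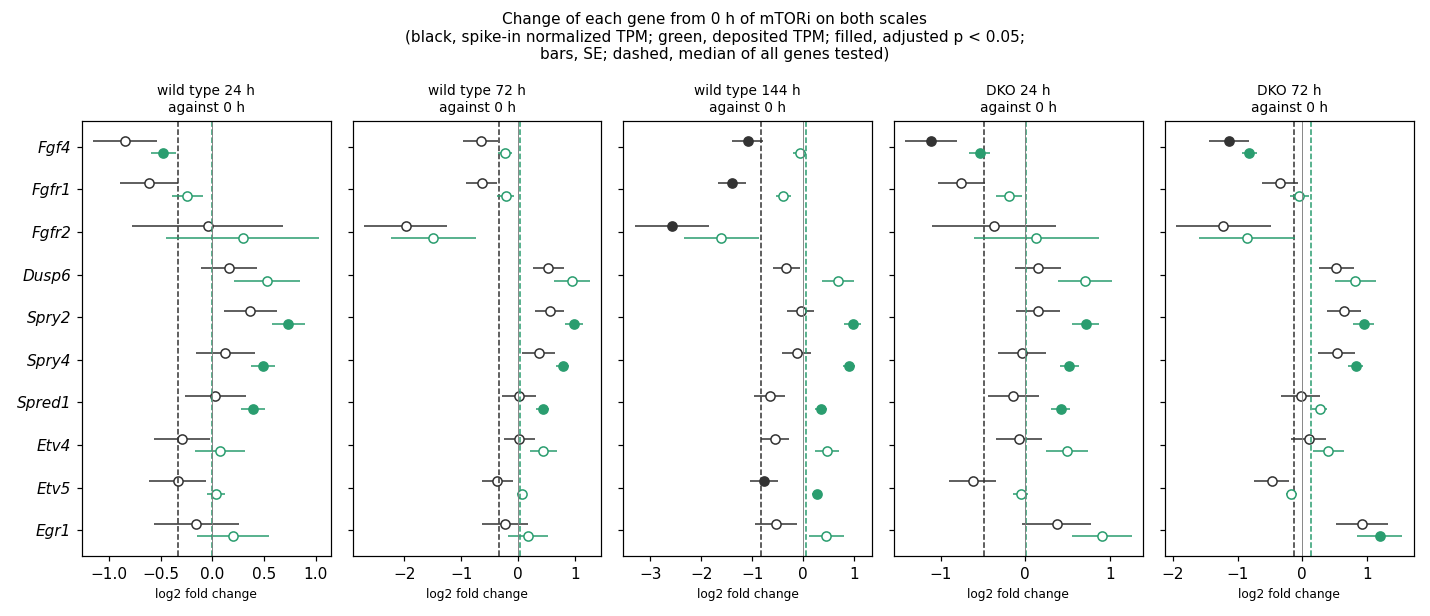
Log2 fold change from 0 h (x) of the 10 genes (y) in the 5 comparisons with time, on the spike-in normalized TPM (black) and the deposited TPM (green), with SE bars, filled points where the adjusted p is under 0.05 and dashed lines at the median of all genes tested. The green points of Spry2 and Spry4 are filled in all 5 panels, and after 144 h the black points of all 10 genes lie below 0.

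Counted over the members, the wild type comparison after 144 h had 4 of 10 called on the spike-in scale, all lower (Fgf4, Fgfr1, Fgfr2, Etv5), where 50.9% of all genes were called. After 24 h and 72 h in wild type cells 0 members were called by limma on that scale, where 9.98% and 8.29% of genes were called. At an unadjusted p under 0.05 there were 2 and 4 of the 10 members, beside 26.7% and 25.7% of all genes. In DKO cells Fgf4 was the 1 member called after 24 h and after 72 h, beside 19.2% and 3.66% of genes. The median log2 fold change of the members was -0.10, -0.11 and -0.60 at 24, 72 and 144 h in wild type cells and -0.11 and 0.04 in DKO cells, each above the median of all genes given above, and 6 or 7 of the 10 members exceeded it in each comparison.

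With the replicate block within each genotype the spike-in scale called 2, 3 and 6 members at 24, 72 and 144 h in wild type cells, all lower, beside 30.2%, 28.3% and 67.4% of genes. These were Fgf4 and Fgfr1 after 24 h, with Fgfr2 added after 72 h and also Spred1, Etv4 and Etv5 after 144 h. In DKO cells it called 3 members lower after 24 h (Fgf4, Fgfr1, Etv5), beside 40% of genes. After 72 h in DKO cells it called Fgf4 and Fgfr2 lower and Spry2 higher (adjusted p = 0.0015, 0.034 and 0.04), beside 18.5% of genes.

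In share of the library, 3 members were called higher after 24 h in wild type cells (Spry2, Spry4, Spred1) where 15.8% of genes were, and 1 lower (Fgf4) where 14.1% were. After 72 h the same 3 were higher, beside 12.6% of genes, and 0 of the 10 were lower by limma (1 lower with the replicate block, Fgfr2), beside 11.4%. After 144 h 4 were higher, Etv5 being the addition, beside 15.6%, and 0 lower (again Fgfr2 with the block), beside 11.7%. DKO cells had 3 higher and 1 lower at both times: Spry2, Spry4 and Spred1 after 24 h (11.6% of genes higher) and Spry2, Spry4 and Egr1 after 72 h (17.2%), with Fgf4 lower (13.3% and 9.06% of genes lower). Under the block the deposited scale called 4, 5 and 6 members at 24, 72 and 144 h in wild type cells and 6 and 5 at 24 and 72 h in DKO cells, beside 37.1%, 32%, 35.5%, 31.9% and 35.8% of genes. Besides the Spred1 calls, median centring ended those of Spry4 after 24 h (adjusted p = 0.0504) and Etv5 after 144 h, on either scale (0.57) in wild type and of Egr1 after 72 h in DKO cells (0.051). It also ended the spike-in calls of Fgf4 and Fgfr2 after 144 h (0.073 and 0.1). In limma's fit it added calls of Fgf4 after 72 h in wild type cells (-0.37, adjusted p = 0.019) and of Etv5 after 72 h in DKO cells (-0.38, adjusted p = 0.014). The call of Fgfr1 after 144 h stayed (-0.57, adjusted p = 0.026).

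Ratios between members within a library are free of the factor and so the same on both scales, though a ratio shows only that 2 genes changed unequally. These pairs were chosen after the values had been seen. Spry2 over Fgf4 was 1.16 and 0.939 in wild type libraries at 0 h, 2.70 and 2.21 after 24 h, 2.93 and 2.03 after 72 h and 2.16 and 2.15 after 144 h. In DKO libraries it was 1.26 and 1.51, 2.66 and 4.17 and 4.46 and 5.07 at 0, 24 and 72 h. Each treated library had more inhibitor transcript per ligand transcript than any untreated library, and both DKO libraries after 72 h exceeded all wild type libraries. Dusp6 over Fgf4 was 0.444 and 0.346 at 0 h, 1.11 and 0.567 after 24 h, 1.10 and 0.738 after 72 h and 0.648 and 0.685 after 144 h in wild type cells. In DKO cells it came to 0.394 and 0.574, 0.786 and 1.67 and 1.33 and 1.72 at 0, 24 and 72 h. Etv4 over Etv5 lay between 0.332 and 0.571 in all 8 wild type libraries, whereas it was 0.547 and 0.647, 0.752 and 1.01 and 0.879 and 0.894 at 0, 24 and 72 h in DKO libraries, of which 5 of 6 were above every wild type library.

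**Figure D4:**
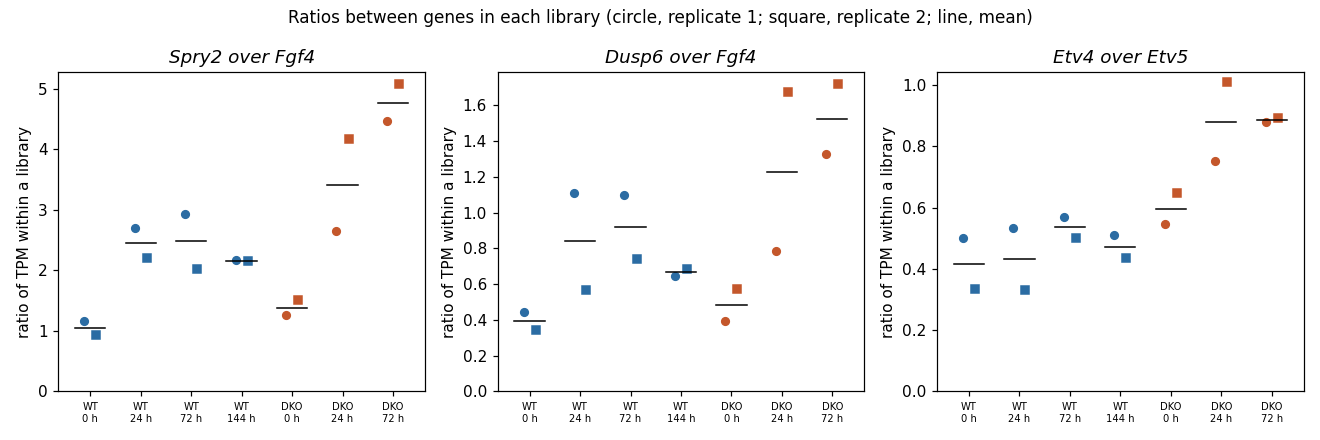
Ratio of the TPM of 2 genes within each library (linear axis from 0) for Spry2 over Fgf4, Dusp6 over Fgf4 and Etv4 over Etv5, by group on the x axis, with circles for replicate 1, squares for replicate 2 and lines for the mean. Spry2 over Fgf4 is above 2 in all treated libraries and highest in DKO cells after 72 h.

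The comparison of DKO cells with wild type cells was made because the study asked what TET1 and TET2 contribute to the response to mTORi. Before treatment 0 members were called on either scale by limma (2 members on the spike-in and 3 on the deposited scale at an unadjusted p under 0.05, as were 8.35% and 13.9% of genes), where 0.0439% of genes were called on the spike-in and 0.598% on the deposited scale. After 24 h 0 members were called as well (1 and 4 at an unadjusted p under 0.05, as were 4.14% and 14.8% of genes), beside 0.0439% and 1.37% of genes. After 72 h the spike-in scale called 0 members (4 at an unadjusted p under 0.05, as were 23% of genes), beside 0.329% of genes, and the deposited scale called 2, both lower in DKO cells, beside 0.845% of genes called lower. The median of all genes lay higher in DKO cells by 0.29, 0.10 and 0.49 log2 units at 0, 24 and 72 h on the spike-in scale.

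The 2 called genes were Fgf4 and Etv5. After 72 h Fgf4 held 44.4 and 40.8 deposited TPM in DKO and 71.3 and 85.5 in wild type libraries (-0.86 ± 0.12 (SE), adjusted p = 0.0099), and Etv5 held 158 and 155 and 222 and 209 (-0.46 ± 0.09 (SE), adjusted p = 0.024). Neither pair of groups overlapped, for either gene, and at 0 h and 24 h the DKO libraries of both genes were also below the wild type ones in share without passing the test. Of all genes 16.6%, 18.8% and 15.1% lay wholly below wild type in share at 0, 24 and 72 h. The Fgf4 call was lost without any 1 of 3 of these libraries and the Etv5 call without any 1 of the 4. The spike-in differences after 72 h were -0.46 ± 0.31 (SE), adjusted p = 0.31 for Fgf4 and -0.05 ± 0.27 (SE), adjusted p = 0.91 for Etv5.

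The members that lay farthest above wild type in DKO cells after 72 h on the spike-in scale were Egr1 (1.20 ± 0.41 (SE), adjusted p = 0.16), Spry4 (0.85 ± 0.28 (SE), adjusted p = 0.16), Fgfr1 (0.82 ± 0.28 (SE), adjusted p = 0.16) and Etv4 (0.68 ± 0.27 (SE), adjusted p = 0.19), none of them called. Spry2 differed by 0.50 ± 0.26 (SE), adjusted p = 0.23 on the spike-in scale and by 0.09 ± 0.16 in share, and Dusp6, Spred1 and Fgfr2 differed by 0.28 ± 0.27, 0.32 ± 0.30 and 0.12 ± 0.73 (SE), with signs that turned on the deposited scale.

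**Figure D5:**
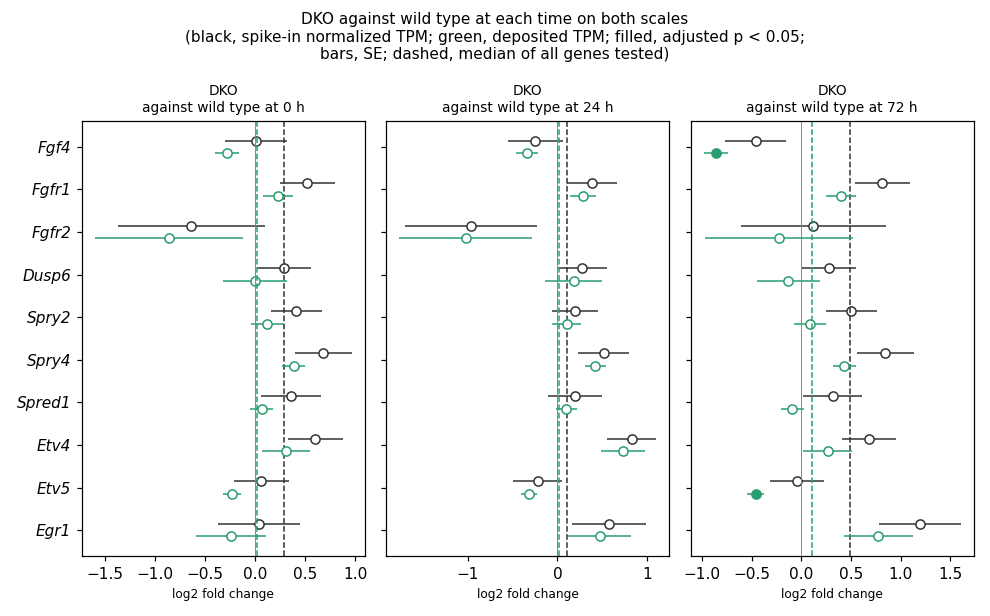
Log2 fold change of DKO against wild type cells (x) for the 10 genes (y) at 0, 24 and 72 h of mTORi, on the spike-in normalized TPM (black) and the deposited TPM (green), with SE bars, filled points where the adjusted p is under 0.05 and dashed lines at the median of all genes tested. Only the green points of Fgf4 and Etv5 after 72 h are filled.

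Whether the response to mTORi itself differed between wild type and DKO cells was tested with an interaction term. After 24 h 0 members were called on either scale, with 0 members at an unadjusted p under 0.05 where 1.22% of genes on the spike-in and 3.87% on the deposited scale were. Called genes came to 0.00548% on the spike-in and 0% on the deposited scale (0.0932% and 0.00548% with the replicate block). After 72 h 0 members were called, beside 0% of genes on both scales with and without the block. At an unadjusted p under 0.05 there were 0 members on the spike-in and 1 on the deposited scale, beside 0.993% and 3.71% of genes. The widest member differences after 72 h were those of Egr1, 1.15 ± 0.58 (SE) on the spike-in scale, Fgfr2, 0.76 ± 1.03, and Fgf4, -0.47 ± 0.44, and on the deposited scale Fgf4 differed by -0.59 ± 0.17. In limma's test the unadjusted p was 0.061 for Egr1 and 0.0064 for the share of Fgf4, with adjusted p = 1 and 1. A share of Fgf4 that passed the test after 72 h in DKO cells and not in wild type cells is therefore not shown to respond differently.

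Around the members, the other inhibitors of the pathway were counted from a list of 19 genes, 18 of them tested. Counts in this and the lists that follow are to be read against all genes tested. On the spike-in scale these were called lower in 8.73%, 7.6% and 50.5% at 24, 72 and 144 h in wild type cells and in 18.7% and 2.95% at 24 and 72 h in DKO cells, and higher in 1.25%, 0.697%, 0.461%, 0.505% and 0.713%. In share, 8, 6 and 8 were called higher and 2, 1 and 1 lower at 24, 72 and 144 h in wild type cells, and 6 and 8 higher and 1 lower at each time in DKO cells, beside 11.6% to 17.2% of all genes higher and 9.06% to 14.1% lower in these 5 comparisons. The list's median log2 fold change on that scale was between 0.27 and 0.43 in these 5 comparisons. On the spike-in scale its median was -0.55 after 144 h beside -0.83 for all genes, with 0 higher and 4 lower by limma. In the other 4 comparisons, in the order above, that scale had 1 higher and 2 lower, 2 higher and 1 lower, 1 higher and 2 lower and 1 higher and 1 lower.

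Dusp4, a nuclear phosphatase of ERK, was called higher on both scales after 24 h and 72 h in both genotypes. Its spike-in normalized TPM was 20.0 ± 1.39 (SD, n = 2) at 0 h, 76.6 ± 16.3 after 24 h, 46.3 ± 6.16 after 72 h and 16.1 ± 0.206 after 144 h in wild type cells. The DKO means were 23.7 ± 3.46, 70.4 ± 0.688 and 52.0 ± 10.8 at 0, 24 and 72 h. The change after 24 h came to 1.87 ± 0.28 (SE, adjusted p = 0.00067) in wild type and 1.54 ± 0.28 (adjusted p = 0.0015) in DKO cells. Dusp14, another dual-specificity phosphatase, moved the opposite way and was called lower in all 5 comparisons on both scales, from -2.48 ± 0.33 after 24 h to -2.18 ± 0.33 after 144 h in wild type cells and -1.39 ± 0.33 after 72 h in DKO cells on the spike-in scale. Spry1, the Sprouty gene outside the members, was called higher in share in all 5 comparisons, with 1.56 ± 0.15 after 144 h in wild type and 0.90 ± 0.15 after 72 h in DKO cells. After 72 h it was lower in DKO than in wild type cells in share (-0.65 ± 0.15, adjusted p = 0.04). Il17rd, which encodes the FGF antagonist SEF, rose in share by 1.27 ± 0.09 after 144 h (adjusted p = 4.7e-05).

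Of 21 other FGF ligand genes 9 were tested. By spike-in normalized TPM 3, 0 and 3 were called lower at 24, 72 and 144 h in wild type cells and 2 and 1 at 24 and 72 h in DKO cells, and 0 were called higher. The largest of these counts, 3 of 9 after 24 h and after 144 h, stood beside 8.73% and 50.5% of all genes called lower. In share the counts were 0 higher and 3 lower, 0 higher and 1 lower and 3 higher and 0 lower in wild type and 0 higher and 2 lower and 2 higher and 1 lower in DKO cells, beside 11.6% to 17.2% of all genes higher and 9.06% to 14.1% lower. Fgf15, which encodes a hormone-like FGF, had the largest fall after 24 h of the ligand genes called, to 0.586 ± 0.105 from 7.75 ± 1.39 deposited TPM in wild type cells and to 0.578 ± 0.321 from 6.75 ± 0.770 in DKO cells (log2 fold changes -2.46 ± 0.19 and -2.31 ± 0.19, SE). In wild type cells it then stood at 5.08 ± 0.342 after 72 h and 15.01 ± 1.28 after 144 h, where it was called higher than at 0 h in share (0.88 ± 0.19, adjusted p = 0.0087), and in DKO cells at 2.50 ± 0.622 after 72 h, still called lower (-1.15 ± 0.19). Its share after 72 h was lower in DKO than in wild type cells (-0.81 ± 0.19, adjusted p = 0.048). Fgf17 was likewise called lower after 24 h on both scales in both genotypes (-1.61 ± 0.17 in wild type and -1.60 ± 0.17 in DKO cells, deposited TPM).

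The other receptors and co-receptors came to 18 genes, 17 of them tested. On the spike-in scale 1, 2 and 11 were lower at 24, 72 and 144 h in wild type cells and 1 at each time in DKO cells, and 1 (the glypican gene Gpc6) was higher, after 24 h in wild type cells. The 11 of 17 after 144 h stood beside 50.5% of all genes called lower. The counts in share were 4 higher and 3 lower, 1 higher and 2 lower and 2 higher and 2 lower in wild type and 1 higher and 1 lower and 1 higher and 1 lower in DKO cells, where the share of all genes was as given for the ligands. Sdc1, which encodes the heparan sulfate carrier syndecan 1, was lower in all 5 comparisons on both scales (-0.94 ± 0.18 after 144 h and -0.89 ± 0.18 after 72 h in DKO cells, deposited TPM). Fgfrl1, a receptor that lacks the kinase part, was higher in share in all 5 (0.81 ± 0.20 and 0.86 ± 0.20 in the same comparisons). Sdc4, another syndecan gene, changed by -3.04 ± 0.47 after 144 h on the spike-in scale (adjusted p = 0.00015).

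The adaptors and the RAS, RAF, MEK and ERK genes themselves were all 24 tested. In wild type cells 1, 2 and 18 were lower at 24, 72 and 144 h on the spike-in scale, in DKO cells 8 and 1 at 24 and 72 h, and 0 were higher. The 18 of 24 after 144 h stood beside 50.5% of all genes called lower, and the 8 of 24 after 24 h in DKO cells beside 18.7%. Hras was lower in all 5 comparisons on both scales, with -0.41 ± 0.13 after 144 h and -0.73 ± 0.13 after 72 h in DKO cells in share. In share the list was divided, with 5 higher and 5 lower, 4 higher and 6 lower and 4 higher and 5 lower in wild type and 1 higher and 7 lower and 4 higher and 5 lower in DKO cells, beside 11.6% to 17.2% of all genes higher and 9.06% to 14.1% lower. Ksr1 (0.74 ± 0.11), a scaffold of the cascade, was among the higher ones after 144 h.

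Among 22 further ERK target and ETS genes, 20 of them tested, 3, 0 and 9 were lower and 0, 1 and 1 higher on the spike-in scale at 24, 72 and 144 h in wild type cells, and 5 and 1 were lower and 0 and 1 higher at 24 and 72 h in DKO cells. The 9 of 20 lower after 144 h stood beside 50.5% of all genes and the 5 of 20 after 24 h in DKO cells beside 18.7%. In share the counts were 6 higher and 4 lower, 6 higher and 2 lower and 7 higher and 1 lower in wild type and 3 higher and 4 lower and 5 higher and 3 lower in DKO cells, with all genes again at 11.6% to 17.2% higher and 9.06% to 14.1% lower. Ccnd1, the gene of the cell cycle activator cyclin D1, had the lowest spike-in change of the list after 24 h in both genotypes (-2.71 ± 0.30 and -2.34 ± 0.30, SE, adjusted p = 2.9e-05 and 0.00011). Epha2, an ephrin receptor gene, was higher in share after 72 h and 144 h in wild type cells (1.20 ± 0.19 and 1.30 ± 0.19) and after 24 h and 72 h in DKO cells (0.80 ± 0.19 and 1.39 ± 0.19). Egr4, an immediate early relative of Egr1, was higher in share after 72 h and 144 h in wild type cells (1.26 ± 0.23 after 72 h) and after 72 h in DKO cells (1.29 ± 0.23). The lists around the members were chosen with earlier results of these data known, and no test of a list as a whole was made.

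Among the members themselves, median-centred log2 values over the 14 libraries went together most closely for Dusp6 and Spry2 (Pearson's r = 0.88), Fgf4 and Etv5 (r = 0.85) and Spry2 and Spry4 (r = 0.84). Outside the members, the genes whose values followed a member most closely were found for each. They were Spred2 (r = 0.97) and Mkrn1 (r = 0.94) for Spry4, Ly6g6d and Fbxo32 (both r = 0.97) for Spry2, and Lrrn2 and Dapk1 (both r = 0.96) for Dusp6. Gm40578 (r = 0.95) and Tsga10 (r = 0.88) followed Spred1, and Ifitm1 (r = 0.96) and Ccdc85c (r = 0.94) followed Fgf4. For the receptors they were Lasp1 (r = 0.96) and Ndufb8 (r = 0.95) with Fgfr1 and Ppm1l (r = 0.95) and Lrrn4 (r = 0.94) with Fgfr2. For the factors they were Mum1 and Mov10 (both r = 0.96) with Etv5, Ppcdc and Trf (both r = 0.89) with Etv4, and Bcl2l11 (r = 0.83) and Twist1 (r = 0.82) with Egr1. Spred2 is itself a feedback inhibitor of the pathway. These values describe 14 libraries that share groups, culture and library preparation. The 2 genes were picked as the highest of all those tested for each member, and no test was made.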

How the data were processed

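RNA of a set number of sorted cells was sequenced with ERCC spike-in RNA from a set mass of RNA, after ribosomal RNA removal. The deposited TPM, a transcript's length-scaled share of its library, were made by the authors, whose notes name cutadapt 2.4, STAR 2.7.3a, StringTie 2.0, mm10 and GENCODE VM19. No counts were used, so depth and its precision are unknown. Each TPM was multiplied by its library's spike-in factor from the study's supplement. The 18232 of 54446 genes whose spike-in normalized TPM averaged 1 or more were fitted on log2(TPM + 1), which understates changes of low genes, with limma 3.58.1 (R 4.3.3; eBayes with trend, 14 libraries in 7 groups, 7 residual degrees of freedom, Benjamini-Hochberg adjusted p). All comparisons with time share the 0 h libraries of their genotype. The same fit was made on deposited TPM, and alternatives were median-centred values, a pseudocount of 0.1, no filter, no trend, replicate blocks and leaving out each library, of which leaving out libraries on the deposited scale was added after the data had been seen.

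The study processed the time points of each replicate in parallel. Deviations of same-numbered libraries correlated at 0.222 to 0.341 within DKO and 0.0622 to 0.398 within wild type cells, so blocked values are given where calls change. The members and lists were chosen with earlier results of these data known. From each list, at most 3 called genes per direction and comparison could be named. Likeness is Pearson's r of median-centred log2 values against genes spanning at least 200 bp. The fit was tested first on data simulated on the spike-in scale, with 200 of 18232 genes changed. A log2 change of 1 was recovered in 4.5% of these for 24 h against 0 h in wild type cells. It was recovered in 2.5% between the genotypes at 72 h and in 0% for the response difference at 72 h. For a change of 2 these values were 94.5%, 94% and 52%. A member that was not called is therefore not shown to be unchanged.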

Additional observations from a re-analysis of the deposited data

How the results depend on the processing

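Counts of the 10 members called depended on the scale. In the time comparisons (wild type 24, 72 and 144 h, DKO 24 and 72 h, each against 0 h) the spike-in scale called 0, 0, 4, 1 and 1. The deposited scale called 4, 3, 4, 4 and 4, and median centring called 2, 3, 3, 3 and 4 (beside 30.7%, 26.2%, 28.9%, 27.7% and 28.1% of all genes). The replicate block within each genotype called 2, 3, 6, 3 and 3, or 4, 5, 6, 6 and 5 on the deposited scale. The block within each genotype changed no member's call beyond those given above. Without a filter on low values 2 were called at 144 h in wild type cells and 0 in both DKO comparisons, beside 18.6%, 6.16% and 1.58% of the genes then tested. At 72 h in DKO cells 0 were called with a pseudocount of 0.1, without the trend, and with the replicate block across all libraries, beside 2.68%, 3.17% and 3.43% of genes. This last block called 2 at 24 h in DKO cells, beside 19.5%. Between the genotypes at 72 h, the deposited scale and median centring called 2 each, beside 4.01% and 1.69% of genes, and the spike-in scale 0, beside 0.329%.

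Leaving out 1 library gave 0 to 1 called at 24 h and at 72 h in wild type cells, 1 to 5 at 144 h, 0 to 3 at 24 h and 0 to 1 at 72 h in DKO cells, and 0 to 2 between the genotypes at 72 h. These last 2 were called higher in DKO cells, without replicate 1 or replicate 2 of DKO cells at 24 h, unlike the 2 called lower on the deposited scale. All genes called in these fits came to 1.96% to 19.8%, 0.367% to 18.8% and 21.6% to 60.4% in wild type cells, 4.43% to 48% and 0.505% to 10.5% in DKO cells and 0% to 6.9% between the genotypes. In the fits with 2 members called, 6.73% and 6.66% of all genes were called higher. The other between-genotype comparisons and both response differences stayed at 0 in all 14 of these fits.

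Some signs differed between the scales. At 144 h in wild type cells the deposited log2 fold changes, with and without the replicate block, were 0.68 for Dusp6, 0.97 for Spry2, 0.90 for Spry4, 0.35 for Spred1, 0.47 for Etv4, 0.27 for Etv5 and 0.46 for Egr1, and the median-centred ones 0.51 for Dusp6, 0.78 for Spry2, 0.71 for Spry4, 0.18 for Spred1, 0.28 for Etv4, 0.075 for Etv5 and 0.30 for Egr1, all negative on the spike-in scale. At 24 h in DKO cells they were 0.52 for Spry4 and 0.42 for Spred1, or 0.42 for Spry4 and 0.32 for Spred1 when centred, and for Spred1 at 72 h in DKO cells 0.27 and 0.067. Between the genotypes at 72 h they were -0.23 for Fgfr2, -0.13 for Dusp6 and -0.091 for Spred1, or -0.38 for Fgfr2, -0.23 for Dusp6 and -0.19 for Spred1 when centred, where Spry2 stood at -0.0040. Further members were negative on the spike-in and positive on the deposited scale. They were Fgfr2, Etv4, Etv5 and Egr1 at 24 h and Etv5 and Egr1 at 72 h in wild type cells, and Fgfr2 and Etv4 at 24 h in DKO cells. Between the genotypes at 0 h Fgf4, Etv5 and Egr1 were positive on the spike-in and negative on the deposited scale. A value on the spike-in scale is the deposited value times the factor of its library, so signs that differ between these 2 scales follow from the factors. In wild type cells these were 2.11 and 2.11 at 0 h and 1.07 and 1 after 144 h. What set the factors was not tested.

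Without 1 library the sign of these spike-in log2 fold changes varied: for wild type 24 h, Spry4 (-0.012 to 0.26) and Spred1 (-0.012 to 0.066). For wild type 72 h, Spred1 (-0.084 to 0.11). For wild type 144 h, Spry2 (-0.11 to 0.0083) and Egr1 (-1.09 to 0.027). For DKO 24 h, Spry4 (-0.33 to 0.24) and Spred1 (-0.54 to 0.26). For DKO 72 h, Fgfr1 (-0.72 to 0.022), Spred1 (-0.33 to 0.27) and Etv4 (-0.18 to 0.38). For DKO against wild type at 72 h, Fgfr2 (-0.54 to 0.79) and Etv5 (-0.34 to 0.24).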
